A study of Mus musculus with 8 samples.

Results

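T cells need a signal besides antigen to become activated, and they are held back by inhibitory signals, and antigen-presenting cells give both through surface proteins. Of these proteins 6 genes are described here: Cd40, Cd80, Cd86, Cd83, Cd274 and Pdcd1lg2. They were followed through every probe set that the platform annotation assigned to one of them, which gave 11 probe sets of 22626 without controls, for 6 of the 12393 genes that the platform names. Each of the 11 was assigned to 1 gene alone: 4 to Cd80, 2 to Cd40, 2 to Cd86 and 1 to each of the other genes.

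Macrophages were grown from mouse bone marrow for 7 days in medium with 50 ng/ml M-CSF, the macrophage growth factor, and their total RNA was measured on 8 one-colour arrays. The labels also describe peritoneal macrophages elicited with thioglycolate, but name marrow-derived cells as the source of each sample. The design crossed IFN-gamma (given or not), calcitriol, the hormonally active 1alpha,25(OH)2D3 (given or not), and genotype (Vdr-/-, from Vdr tm1 Rge knockout mice, or wild type), with 1 array for each of the 8 combinations. The groups were Vdr-/- and wild type with IFN-gamma and calcitriol, Vdr-/- and wild type with IFN-gamma, Vdr-/- and wild type with calcitriol, and untreated Vdr-/- and wild-type cells. Treatments lasted 24 to 48 hours, and no group had a replicate. The labels read here state no dose, no age and no number of mice, nor whether arrays share a mouse or a culture, so p-values measure only the spread between these arrays.

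CD80 and CD86 are paired ligands of the B7 family that bind CD28, which activates T cells, and CTLA-4, which restrains them. CD40 is a receptor of the TNF receptor family on antigen-presenting cells; T cells bind it with CD40 ligand, and its signal raises costimulation. CD83 is a surface protein best known as a marker of mature dendritic cells. PD-L1, encoded by Cd274, and PD-L2, encoded by Pdcd1lg2, bind the checkpoint receptor PD-1 and restrain T cells. IFN-gamma, a cytokine of T and NK cells, is a known inducer of PD-L1 and CD40 in macrophages. Cd274 and Pdcd1lg2 are direct neighbours among the protein-coding genes of the mouse genome.

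Most macrophage markers were bright on all 8 arrays, but Itgam read 80 to 977.6 and Fcgr1 145.2 to 3897. Csf1r, the M-CSF receptor gene, read 9768.9 to 23760.8 and Lyz2, the lysozyme gene, 16652 to 28242.7, in the authors' linear signal units. Median signals of the arrays were 53.5 to 68.3, and precision is limited by there being 8 arrays. Signals up to 15.5, the pooled 25th percentile, were treated as a floor. The wild-type calcitriol array and the array labelled Vdr-/- untreated stood apart: their Pearson correlations with the other arrays reached at most 0.781 and 0.809, and their Gapdh 3'/5' signal ratios, which rise with RNA truncation, were 7.67 and 4.82, against 0.853 to 3.06 on the other 6. Vdr, the targeted gene, read 90.3 and 63.2 in its 2 probe sets on the array labelled Vdr-/- untreated and 6.7 and 5.3 on the array labelled wild-type untreated, which goes against these labels. In the other treatments both probe sets were lower in Vdr-/- than in wild type, and whether they lie in the deleted part of Vdr was not examined. Results are therefore also given without each of these pairs of arrays.

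RefSeq's promoter table held 3 of the 6 genes, Cd274, Pdcd1lg2 and Cd80, and their sequences are shown for that reason. With IFN-gamma Cd274 rose, Pdcd1lg2 was higher in all 4 array pairs but missed the threshold, and Cd80 was near 0. Differences between these genes in the response were not tested. Each line gives the 250 bases before the start of transcription, 5' to 3' on the plus strand of GRCm38.p6, and the capital letter marks the start. Cd274 lies at chr19:29367188-29367438, Pdcd1lg2 at chr19:29410669-29410919 and Cd80 at chr16:38458683-38458933.
Cd274: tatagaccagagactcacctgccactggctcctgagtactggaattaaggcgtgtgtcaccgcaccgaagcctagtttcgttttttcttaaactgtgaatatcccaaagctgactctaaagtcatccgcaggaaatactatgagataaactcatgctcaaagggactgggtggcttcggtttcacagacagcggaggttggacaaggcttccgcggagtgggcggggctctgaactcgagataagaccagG
Pdcd1lg2: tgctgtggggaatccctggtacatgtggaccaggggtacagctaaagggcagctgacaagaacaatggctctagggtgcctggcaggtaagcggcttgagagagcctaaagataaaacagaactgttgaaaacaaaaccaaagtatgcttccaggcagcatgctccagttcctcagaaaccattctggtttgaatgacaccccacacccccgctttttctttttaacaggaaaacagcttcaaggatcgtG
Cd80: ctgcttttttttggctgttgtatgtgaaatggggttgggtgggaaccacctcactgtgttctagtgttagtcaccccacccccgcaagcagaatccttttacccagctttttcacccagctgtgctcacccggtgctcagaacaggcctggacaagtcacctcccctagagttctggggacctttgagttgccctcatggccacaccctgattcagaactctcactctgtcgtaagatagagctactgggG
In these windows, each extended by 50 bases past its start, both strands were searched for the interferon response element ISRE (GAAA, any 2 bases, GAAA), an NF-kB site (GGG, any 3 bases, TTCC) and the AGGTCA element of vitamin D receptor sites. None of the 3 windows held any of these 3 motifs. Among 32851 promoter windows of the same length, 3.44% held ISRE, 5.56% the NF-kB site and 16.3% the AGGTCA element. These letters are simply absent from the windows, which says nothing of binding by the factors. Looser forms of these 3 motifs were not searched. Near its 5' end the Pdcd1lg2 line reads ggggaatccc, which ends in tccc where the searched NF-kB form has TTCC. It is a near match that the search left out, and the windows may hold other such sites.

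The first comparison, arrays with IFN-gamma against arrays without it, asks how the cytokine changes these genes. In the probe set with the highest mean signal of each gene, Cd274, Cd40, Cd86 and Cd83 rose, Pdcd1lg2 was higher in all 4 array pairs without passing the test, and Cd80 had a change near 0. That is 4 of 6 genes called higher and 0 lower by limma at an adjusted p under 0.05, against 2.15% of all tested probe sets called higher, 1.27% called lower and 3.43% in either direction. The median change of the 6 genes was 1.77 log2, against -0.09 log2 over all 10366 genes tested. All 7 probe sets of the 5 genes other than Cd80 read higher on all 4 arrays with IFN-gamma than on any of the 4 without it, as did 3.11% of all tested probe sets.

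**Figure D1:**
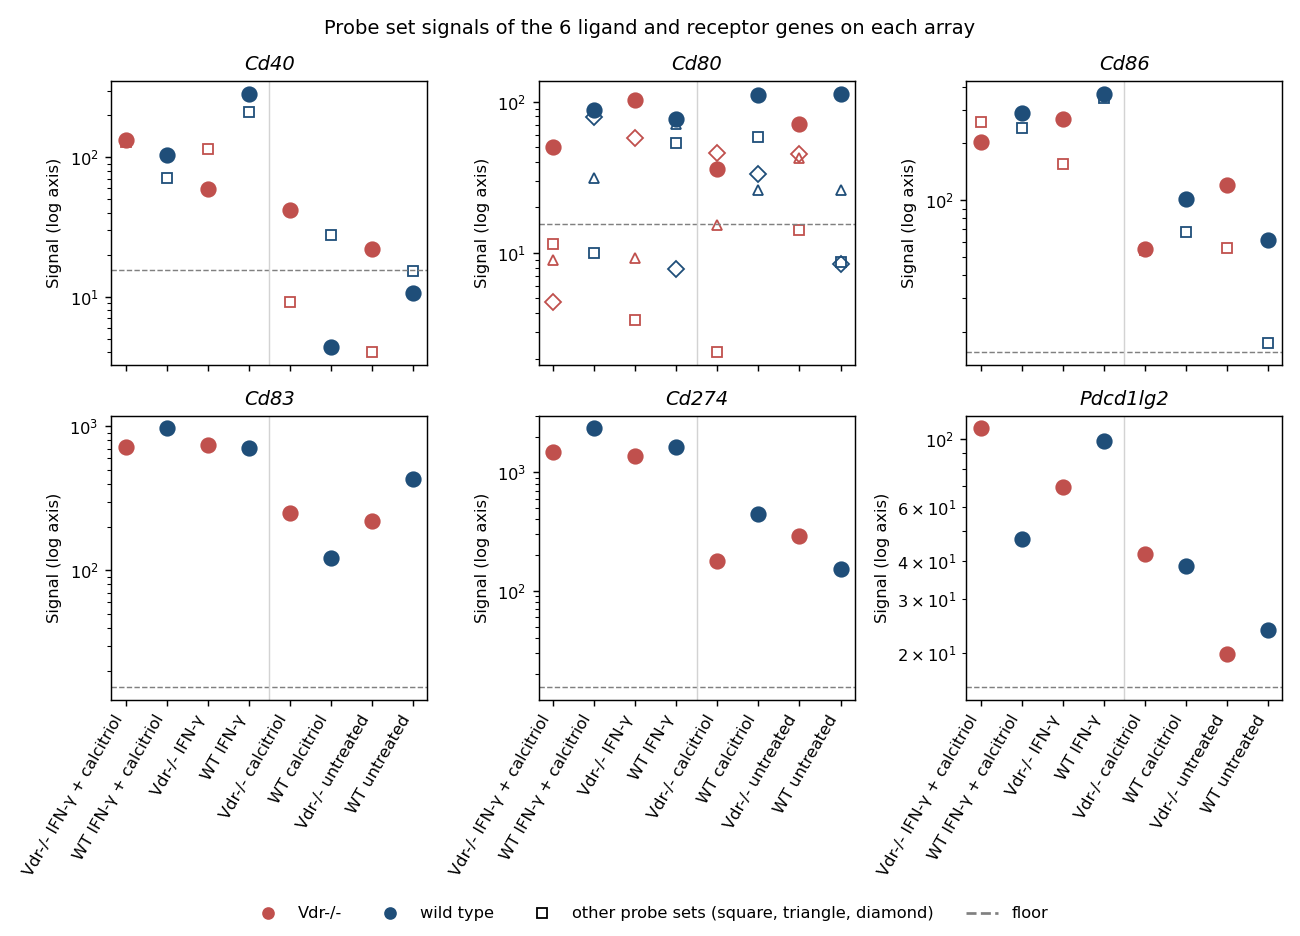
Signal of each probe set (log axis, the authors' linear units) on the 8 arrays, with IFN-gamma left of the grey line and without it right of the line, Vdr-/- in red and wild type in blue. Filled circles are the probe set with the highest mean signal, open symbols the gene's other probe sets, and the dashed line is the floor of 15.5. For every gene but Cd80 the 4 points on the left lie above the 4 on the right.

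Cd274, the gene of the inhibitory ligand PD-L1, read 1482.9 in Vdr-/- and 2337.9 in wild type with IFN-gamma and calcitriol, and 1378.3 in Vdr-/- and 1644.8 in wild type with IFN-gamma alone. Without IFN-gamma it read 178.9 in Vdr-/- and 447.8 in wild type with calcitriol, and 288.8 and 153.6 on the arrays labelled Vdr-/- and wild-type untreated. The lowest array with IFN-gamma was thus well above the highest without it. The 6.86-fold rise of Cd274 was 2.78 on the log2 scale, with SE 0.242 and a limma adjusted p of 1.80e-08. Among all tested probe sets it ranked 46 by p. The rise in the 4 single pairs was 3.05 and 2.25 log2 in Vdr-/- (with and without calcitriol) and 2.38 and 3.42 log2 in wild type.

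Pdcd1lg2, the gene of the other PD-1 ligand, read 108.2 in Vdr-/- and 47.1 in wild type with IFN-gamma and calcitriol, and 69.6 in Vdr-/- and 98.8 in wild type with IFN-gamma alone. Without IFN-gamma it read 42.1 in Vdr-/- and 38.6 in wild type with calcitriol, and 19.9 and 23.7 on the arrays labelled Vdr-/- and wild-type untreated. The groups did not overlap, but the lowest array with IFN-gamma, wild type with calcitriol, was only just above the highest without it. The change was 1.38 log2 (SE 0.609, limma adjusted p = 0.337) and ran in the 4 pairs to 0.29 log2 at the lowest, in wild type with calcitriol, and 2.06 log2 at the highest, in wild type without it.

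Cd40, the costimulatory receptor gene, was called higher with IFN-gamma in both probe sets. Its brighter probe set read 133.1 in Vdr-/- and 104.4 in wild type with IFN-gamma and calcitriol, and 59.2 in Vdr-/- and 283.8 in wild type with IFN-gamma alone. Without IFN-gamma it read 41.8 in Vdr-/- and 4.4 in wild type with calcitriol, and 22.1 and 10.6 on the arrays labelled Vdr-/- and wild-type untreated. Both wild-type arrays without IFN-gamma were below the floor, so the size of the rise depends on it. Cd40 rose 5.70-fold, 2.51 on the log2 scale with SE 0.62 and a limma adjusted p of 0.0193. The rise was 3.04 log2 with the floor at the 10th percentile and 1.61 log2 with it at the 40th. The second probe set had a rise of 2.77 log2 with SE 0.623 (limma adjusted p = 0.00866). It had 3 arrays at the floor, all without IFN-gamma, so the size of this rise depends on the floor as well. The 2 sets correlated with Pearson's r of 0.875 over the 8 arrays.

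Cd86, whose product is a CD28 ligand, rose in both probe sets. The brighter one read 202.9 in Vdr-/- and 290 in wild type with IFN-gamma and calcitriol, and 270.4 in Vdr-/- and 366.4 in wild type with IFN-gamma alone. Without IFN-gamma it read 55.1 in Vdr-/- and 101 in wild type with calcitriol, and 120.3 and 61.3 on the arrays labelled Vdr-/- and wild-type untreated. All 4 arrays with IFN-gamma lay above all 4 without it. This 3.45-fold rise, 1.79 on the log2 scale with SE 0.362, had a limma adjusted p of 0.00312. In the second probe set the rise was 2.49 log2, SE 0.476, at a limma adjusted p of 0.00183, and the array labelled wild-type untreated had its lowest signal, 17.3. The 2 sets correlated with r of 0.904 over the 8 arrays.

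Cd83, the maturation marker gene, read 715.8 in Vdr-/- and 966.4 in wild type with IFN-gamma and calcitriol, and 747.8 in Vdr-/- and 704.4 in wild type with IFN-gamma alone. Without IFN-gamma it read 250.1 in Vdr-/- and 122.4 in wild type with calcitriol, and 221 and 429.4 on the arrays labelled Vdr-/- and wild-type untreated. The 4 arrays with IFN-gamma lay close together and above the 4 without it, which were more widely spread. Cd83 rose 3.35-fold, or 1.74 log2 with SE 0.292, at a limma adjusted p of 0.000407, and the smallest rise of the 4 pairs was 0.71 log2, in wild type without calcitriol.

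Cd80, the other CD28 ligand gene, was not called, and its difference from Cd86 was not tested. Its brightest probe set read 50.2 in Vdr-/- and 87.9 in wild type with IFN-gamma and calcitriol, and 102.1 in Vdr-/- and 76.6 in wild type with IFN-gamma alone. Without IFN-gamma it read 35.8 in Vdr-/- and 110.5 in wild type with calcitriol, and 71.5 and 112.5 on the arrays labelled Vdr-/- and wild-type untreated. The groups overlapped fully. The change was 0.03 log2 (SE 0.498, limma adjusted p = 0.993), positive in both Vdr-/- pairs (0.49 and 0.51 log2) and negative in both wild-type pairs (-0.33 and -0.55 log2). The difference between the genotypes in this response was 0.94 log2, Vdr-/- minus wild type (SE 1.01, limma adjusted p = 0.996).

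The other 3 Cd80 probe sets did not follow the brightest one. One of them peaked at 58.7, just under the filter at the pooled median of 59.1, and was not tested, with 6 of 8 arrays at the floor. The other pair had 3 arrays each at the floor and changes of 0.07 and 0.01 log2. Pearson's r between Cd80 probe sets over the 8 arrays ran from -0.315 to 0.53, so these low signals tell little about the gene beyond the brightest set. In all, 10 of the 11 probe sets passed the filter.

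**Figure D2:**
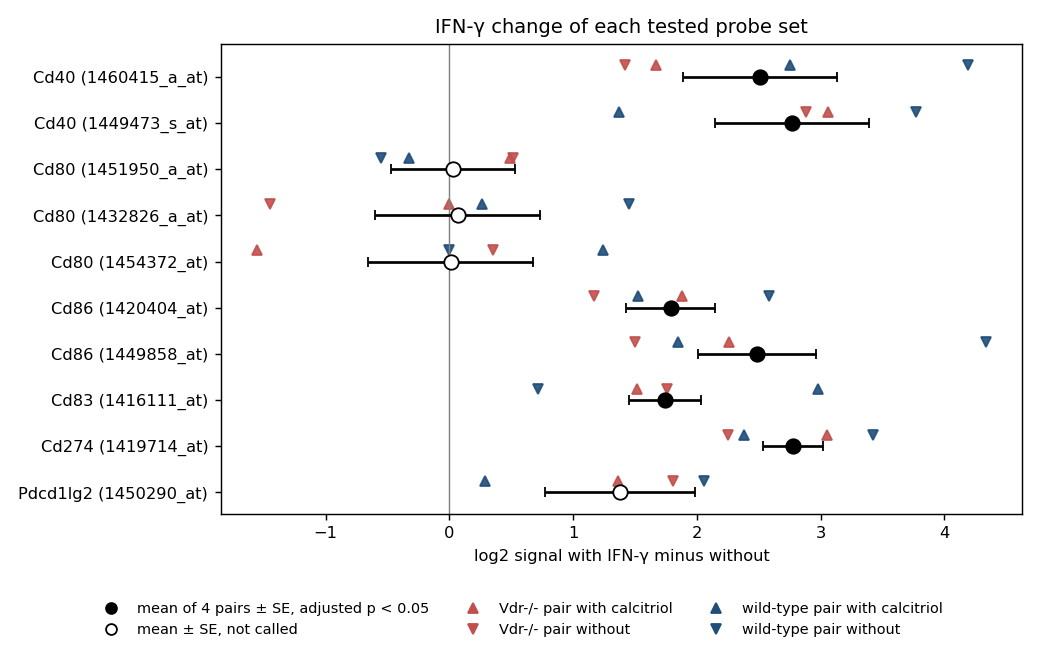
Change with IFN-gamma (log2 signal with minus without, x axis) of the 10 tested probe sets, as the mean of 4 array pairs with its SE (circles, filled where the limma adjusted p is under 0.05), with the single pairs as triangles above each row. The 7 probe sets of genes other than Cd80 lie to the right of 0 in every pair, and the Cd80 probe sets straddle 0.

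The calls rest on few arrays, although the direction of the changes of Cd274, Cd40, Cd86 and Cd83 was the same in all 14 alternatives run. In additive fits without the wild-type calcitriol and Vdr-/- untreated arrays 1 of the 6 genes was called, Cd274. Without the 2 untreated arrays 0 were, with 1143 probe sets at an unadjusted p under 0.05. Calls over all probe sets fell in both fits as well, from 619 to 24 without the untreated arrays. The changes then were 2.72 log2 for Cd274, 2.21 for Cd40, 1.70 for Cd86 and 2.25 for Cd83 without the untreated arrays, on 2 residual degrees of freedom. Leaving out any 1 pair ended the Cd40 call (limma adjusted p 0.0901 to 0.383). The Cd86 call ended without any pair but that of Vdr-/- with calcitriol (0.149 to 0.165), and the Cd83 call without the Vdr-/- pair that lacked calcitriol (0.264) or the wild-type pair with it (0.134). Cd274 was called without each single pair (9.86e-06 to 0.0108).

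IFN-gamma is known to signal through its receptor, JAK kinases and STAT factors to IRF1. Genes of that route that were measured gave 6 of 12 higher and 0 lower, with a median of 1.04 log2. Over all 10366 genes tested 2.44% were called higher and 1.57% lower. Irf1, the transcription factor gene, rose by 3.69 log2 (limma adjusted p = 1.85e-11), Socs1 and Socs3, which encode feedback inhibitors, by 3.73 and 2.76 log2, and Stat2, Stat3 and Irf8, which encode transcription factors, by 2.59, 1.65 and 1.496 log2. Socs1 and Socs3 each had 2 arrays at the floor and Stat2 had 1, all without IFN-gamma, so the sizes of these rises depend on the floor. The receptor genes Ifngr1 and Ifngr2 had changes of -0.17 and 0.30 log2 and were not called. Of the CD40 and NF-kB signalling genes 17 had a probe set and 16 were tested. Among the 16, 0 were called by limma, and the median was 0.07 log2. An unadjusted p under 0.05 was reached by 2 of them (Nfkbia, 0.66 log2, and Nfkbib, 0.76 log2).

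Of other costimulatory and coinhibitory ligands 18 genes had a probe set and 17 were tested. Among the 17, 1 rose and 2 fell, against 2.44% and 1.57% of all 10366 genes tested. Their median was -0.34 log2, against -0.09 log2 over all genes tested. Icam1, the adhesion ligand of the T cell integrin LFA-1, read 721.9 to 875.2 with IFN-gamma against 155.8 to 232.4 without it and rose by 2.07 log2 (SE 0.253, limma adjusted p = 5.13e-06). Cd48, the gene of a ligand of CD2 and the receptor 2B4, read 383.5 to 869.6 with IFN-gamma against 1213.3 to 2229.4 without it and fell by 1.31 log2 (limma adjusted p = 0.00101). Vsir, the gene of the inhibitory ligand VISTA, read 338.8 to 905.6 with IFN-gamma against 836.3 to 1036.2 without it and fell by 0.89 log2 (limma adjusted p = 0.0374). Of 14 alternatives, 12 ended the Vsir call, among them each left-out pair (limma adjusted p 0.126 to 0.422), 6 the Cd48 call and 3 the Icam1 call. The ligand gene of the receptor ICOS, Icosl, had a change of 2.00 log2 (SE 0.641, limma adjusted p = 0.106). It had 2 arrays at the floor, both without IFN-gamma, so this size depends on the floor. Without the wild-type calcitriol and Vdr-/- untreated arrays, and likewise without both untreated arrays, 0 of these 17 genes were called; of the 12 interferon-gamma signalling genes 1 and 0 were.

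**Figure D3:**
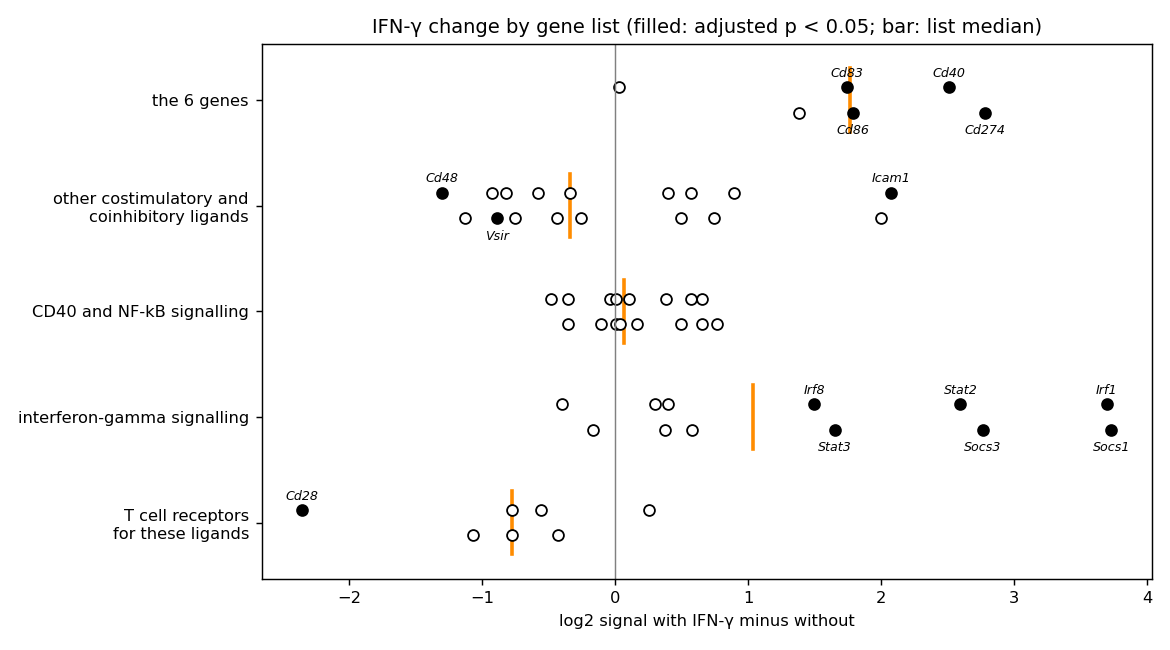
Change with IFN-gamma (log2 signal with minus without, x axis) of every tested gene in the 6-gene group and 4 related lists. Each gene is 1 point at its brightest probe set, filled and named where the limma adjusted p is under 0.05. Orange bars mark the list medians, 1.77 log2 for the 6 genes and -0.34 log2 for the other ligands.

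Receptors by which T cells read these ligands served to look for T cells in the cultures. Of 7 measured receptor genes 0 rose and 1 fell with IFN-gamma, against 2.44% and 1.57% of all genes tested. The gene that fell was Cd28 (-2.35 log2, SE 0.443, limma adjusted p = 0.00156). It read 28.3 to 343.2 on 3 of the arrays with IFN-gamma and 4.8 on the wild-type one without calcitriol. Without IFN-gamma it read 146.1 to 597.6. The groups overlapped through the wild-type array with both agents, and the call was lost without the wild-type calcitriol and Vdr-/- untreated arrays and without both untreated arrays. Cd28 was also called higher with calcitriol in wild type (3.25 log2, SE 0.636, limma adjusted p = 0.0179), a size that depends on the floor because the array with IFN-gamma alone was below it, and 7 of 9 alternatives lost this call (limma adjusted p 0.00872 to 0.844 over the 9). Genes of the T cell receptor complex were near the floor: Cd3d read 3.8 to 32.3 with 7 of 8 arrays at the floor, Cd3e 8.3 to 47.6 and Cd3g 14.6 to 35.9. The summed signal of the 10 T and NK cell markers was 544.5 to 1271.3 with IFN-gamma against 1954 to 3894.4 without it, most of it from Il7r (393 to 1126.1 against 1697.6 to 3501).

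Dendritic cells and B cells carry several of these surface proteins as well. The summed signal of 10 dendritic cell markers was 506.8 to 1571.1 with IFN-gamma against 567.4 to 1588.5 without it, and that of 9 B cell markers 328.2 to 586.6 against 355.2 to 629, so both ranges overlapped. Of the dendritic cell list, Ly75 was at the floor on all 8 arrays, Ccr7 and Xcr1 on 6, Cd209a and Kit on 5, and Flt3, Zbtb46 and Fscn1 on 3. Itgax, which macrophages also express, and Batf3 were above the floor on all 8. Itgax alone gave 1279.2 of the highest dendritic cell sum with IFN-gamma and 1242.8 of the highest without it. Cd22, the brightest gene of the B cell list on every array, read 131.2 to 271.3. Batf3 read 83.6 to 273.4 with IFN-gamma against 62.1 to 125.1 without it, a change of 0.99 log2 (limma adjusted p = 0.281) in the same direction as the called genes, and Itgax had a change of -0.98 log2 (0.0579). Of the markers tested, 6 of the dendritic cell list and 7 of the B cell list, 0 were called with IFN-gamma. Sums of 8 neutrophil markers (223.1 to 293.1 against 312.1 to 449) and 6 stromal markers (105.6 to 263.4 against 309.8 to 538.1) were also lower with IFN-gamma. Il7r (-1.68 log2) and the stromal collagen gene Col3a1 (-2.02 log2) were called lower, and the macrophage list genes Fcgr1 (1.96 log2) and Aif1 (1.65 log2) higher, and the part of such cells in the values of the 6 genes was not tested. In such bulk samples fewer cells of a type and less RNA per cell cannot be told apart.

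Calcitriol was compared with no calcitriol in each genotype, to ask what the hormone does to these genes with and without its receptor. None of the 6 genes was called: 0 of 6 in Vdr-/- (0.194% of all tested probe sets were called, all of them higher) and 0 of 6 in wild type (0.576%, with 0.188% higher and 0.388% lower), with 0 and 1 of the 6 at an unadjusted p under 0.05. The gene past that unadjusted threshold was Cd274. In Vdr-/- its change was -0.29 log2 (SE 0.354, limma adjusted p = 0.953), and in wild type 1.03 log2 (SE 0.354, limma adjusted p = 0.263). The difference of these effects, Vdr-/- minus wild type, was -1.32 log2 (SE 0.5, limma adjusted p = 0.26, against 1.5% of tested probe sets called, 1.33% higher and 0.172% lower). It was -0.40 log2 without the wild-type calcitriol and Vdr-/- untreated arrays (limma adjusted p = 0.773) and -0.74 log2 without both untreated arrays (0.84). Both wild-type pairs were positive, with 2337.9 with both agents against 1644.8 with IFN-gamma alone (0.51 log2), and 447.8 with calcitriol against 153.6 untreated (1.54 log2). The larger of these 2 steps uses the wild-type calcitriol array, which had the highest 3'/5' ratio, and the array labelled wild-type untreated.

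Among the brightest probe sets, Cd40 had the widest gap between the genotypes' calcitriol steps under IFN-gamma. In Vdr-/- cells the brighter probe set read 133.1 with both agents against 59.2 with IFN-gamma alone, 1.17 log2, and the second read 129.5 against 114, 0.18 log2. In wild-type cells the brighter one read 104.4 with both agents against 283.8 with IFN-gamma alone, -1.44 log2 or 2.72-fold lower, and the second 70.9 against 211.4, -1.58 log2 or 2.98-fold lower. The 4 arrays behind these values are neither the untreated ones nor the wild-type calcitriol array, but Vdr-/- with IFN-gamma alone, the lower array of the Vdr-/- step, had a Gapdh 3'/5' ratio of 3.06 against 1.05 to 1.65 on the other 3. Each step compares 1 array with 1 array and has no test. Without IFN-gamma both wild-type readings of the brighter probe set were under the floor. Over both pairs the calcitriol change of Cd40 was 1.04 log2 in Vdr-/- (SE 0.857, limma adjusted p = 0.935) and -0.72 log2 in wild type (SE 0.857, 0.802), and the difference, 1.77 log2 (SE 1.21), was not called (limma adjusted p = 0.611).

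Pdcd1lg2 had the same pattern of signs under IFN-gamma, with 108.2 with both agents against 69.6 with IFN-gamma alone in Vdr-/- (0.64 log2) and 47.1 against 98.8 in wild type (-1.07 log2). Without IFN-gamma it was higher with calcitriol in both genotypes, 42.1 against 19.9 in Vdr-/- and 38.6 against 23.7 in wild type. The difference of its calcitriol effects was 1.04 log2 (SE 1.26, limma adjusted p = 0.788). Cd86 was lower with both agents than with IFN-gamma alone in its brighter probe set in both genotypes (-0.41 log2 in Vdr-/- and -0.34 in wild type), but in Vdr-/- the second probe set went the other way (0.74 log2).

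The wild-type calcitriol array held the lowest Cd83 signal of the 8, 122.4 against 429.4 on the array labelled wild-type untreated (-1.81 log2). With IFN-gamma present the wild-type step was 966.4 against 704.4 (0.46 log2), and in Vdr-/- the steps were -0.06 and 0.18 log2 with and without IFN-gamma. The brightest Cd80 probe set was lower with calcitriol in both Vdr-/- pairs (50.2 against 102.1, and 35.8 against 71.5) and close to even in wild type (87.9 against 76.6 with IFN-gamma, and 110.5 against 112.5 without it). None of these differences was called over both pairs of a genotype (limma adjusted p 1 and 0.91 for Cd83 and Cd80 in Vdr-/-, 0.629 and 0.985 in wild type).

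**Figure D4:**
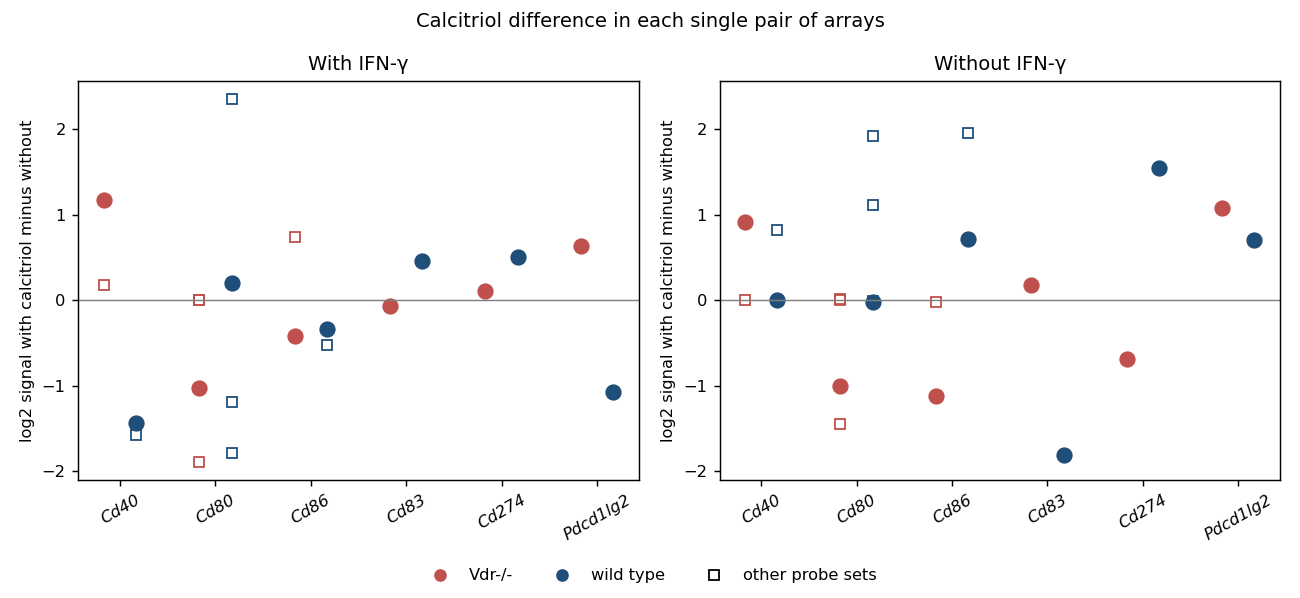
Log2 signal with calcitriol minus without (y axis) in each single pair of arrays, with IFN-gamma in the left panel and without it in the right, Vdr-/- in red and wild type in blue; filled circles are the brightest probe set of each gene and open squares the others. Under IFN-gamma both wild-type Cd40 points lie at -1.44 and -1.58 log2, and the Vdr-/- points at 1.17 and 0.18.

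Among the related lists, 1 of 17 tested ligand genes had a calcitriol effect called different between the genotypes. Of all tested probe sets 1.33% were called higher and 0.172% lower in this contrast. The gene was Lgals9, which encodes galectin-9, a ligand of the inhibitory receptor TIM-3 (2.83 log2, Vdr-/- minus wild type, SE 0.706, limma adjusted p = 0.0394). In Vdr-/- cells it read 248.1 with both agents against 68.8 with IFN-gamma alone, and 465.6 with calcitriol against 70.5 on the array labelled untreated. In wild type it read 303.1 against 411.3, and 59 against 92.5. The call was lost in 8 of 9 alternatives (limma adjusted p 0.0202 to 0.83 over the 9), among them quantile normalization, the lower floor and both fits without doubted arrays. In the same contrast 3 of 9 macrophage markers were called higher, Fcgr1 (3.79 log2), Itgam (3.63 log2) and Cd68 (2.70 log2), and 1 of 6 dendritic cell markers lower, Itgax (-2.32 log2). Their part in the Lgals9 difference was not tested.

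Genotype was compared over the 4 treatments, Vdr-/- against wild type. Of the 6 genes 0 were called, as were 0% of all 18058 tested probe sets by limma, with 611 at an unadjusted p under 0.05 and none of the 6 genes among them. The changes ran from -0.67 log2 for Cd80 (SE 0.55) to 0.14 log2 for Pdcd1lg2 (SE 0.634). Cd274 had -0.33 log2 over all pairs and -0.75 log2 without the untreated pair, whose genotype labels are in doubt, where Cd80 had -0.67 log2. The SEs of the 6 genes were 0.333 to 0.673 log2. The difference of the IFN-gamma effect between the genotypes was also called for 0 of the 6 genes and for 0% of all tested probe sets (635 at an unadjusted p under 0.05). It was largest in size for Cd40 (-1.93 log2, SE 1.21, limma adjusted p = 0.996), whose second probe set had the opposite sign (0.40 log2).

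Across the 8 arrays the log2 signals of Cd274 and Cd86 correlated most closely among the 6 genes, with Pearson's r of 0.955, and those of Cd40 and Pdcd1lg2 had r of 0.852. Cd80 had r of -0.314 to 0.205 with the other 5. These values describe 8 arrays that share the IFN-gamma step, and are not tests. Of 10365 other genes compared, the closest to Cd274 were P2ry14 (r 0.987), Gdap10 (0.982), Usp12 (0.975) and Socs3 (0.972). For Cd40 they were H2-M3, Zbp1, Il4ra and Slamf7 (0.963 to 0.974), and for Cd83 Cox8a, Ralgds, Arhgef3 and Rnf19b (0.97 to 0.982). Cd86 was closest to H2-Oa, Zyx, Cd274 and Itm2c (0.947 to 0.96), and Pdcd1lg2 to Parp14, Lcp2, Serpinb9 and Dram1 (0.947 to 0.96). The genes closest to Cd80 were Kcnj11, Dsg2, Aldh1a2 and Vwa8 (0.929 to 0.962), with IFN-gamma changes of -0.18 to 0.25 log2. All these partners were picked as the highest of 10365 values over 8 arrays. Their r values are raised by that choice and were not tested.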

How the data were processed

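The authors deposited 1 intensity signal per probe set and array, on a linear scale. All 8 arrays had almost equal 2% trimmed means (150.07 to 150.08), so the deposited signals were already scaled between arrays; the labels read here name no software. Of 22690 probe sets, 64 controls were set aside. The platform annotation, with symbols updated through gene IDs, gave 1 gene for 20380 probe sets, several for 691 and none for 1555. The floor was the pooled 25th percentile (15.5): lower signals were raised to it before the log2 step. A filter at the pooled median (59.1), applied to the maximum over arrays, left 18058 probe sets for testing.

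Tests used limma 3.58.1 in R 4.3.3 (empirical Bayes, intensity trend, two-sided) with p-values adjusted by Benjamini-Hochberg over these 18058 probe sets and a threshold of 0.05. IFN-gamma and genotype effects were fitted with the 4 pairs of arrays that share the other factors as blocks, leaving 3 residual degrees of freedom. Calcitriol effects and differences between genotypes came from a fit nested in genotype, which left 2. The spread comes from disagreement between treatments, not from replicates. Fits were tested on simulated data. One further motif that was searched is not reported here. Members, lists and tests were chosen with earlier results of these data known. Named genes were the 6 members, the called genes of 4 related lists, Vdr, and for each member the 4 genes of highest r; Nfkbia, Nfkbib, Icosl, Ifngr1 and Ifngr2 and single markers were named after their values were seen. A gene in a list was represented by its brightest probe set. Alternatives were quantile normalization, other floors and filters, no trend, mean over probe sets, additive fits, and left-out pairs or arrays. Figures were drawn with matplotlib 3.10.9 in Python 3.11.15.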

Additional observations from a re-analysis of the deposited data

How the results depend on the processing

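No paired analysis was possible by replicate number because each group held 1 array; pairs of arrays that share the other factors were the blocks of the IFN-gamma and genotype fits. The number of the 6 genes called for IFN-gamma, 4, was 1 without the signal filter, 1 without the intensity trend, 1 without the wild-type calcitriol and Vdr-/- untreated arrays, 0 without the 2 untreated arrays, and 1 to 3 with single pairs left out. Over all probe sets, 619 calls became 80 without the filter, 70 without the trend, 372 with means over a gene's probe sets, 394 without pair blocks, 53 and 24 without these pairs of arrays, and 99 to 152 without single pairs other than that of Vdr-/- with calcitriol. The 35 and 104 calls for calcitriol in Vdr-/- and wild type and the 271 for their difference were each 0 by limma without the filter (1045, 1680 and 2028 at an unadjusted p under 0.05), with the stricter filter (599, 1083 and 1378) and without the trend (1017, 1406 and 1611). They were also 0 without the wild-type calcitriol and Vdr-/- untreated arrays (740, 1407 and 1174) and without the untreated arrays (293, 746 and 728). They were 1, 5 and 100 with the lower floor, and 7, 0 (1132 unadjusted) and 65 with means over probe sets. Quantile normalization gave 18 and 58 for Vdr-/- and wild type, and the higher floor gave 58 for calcitriol in Vdr-/-. In the calcitriol, genotype and difference contrasts, 0 of the 6 genes was called by limma in any alternative.

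Signs that changed all belonged to changes that were not called. For IFN-gamma, Cd80 had -0.0116 log2 with the higher floor and -0.13 to 0.22 without single pairs. For genotype, Cd40 had -0.46 with the higher floor, -0.10 with means over probe sets, -0.32 without the wild-type calcitriol and Vdr-/- untreated arrays, -0.16 without the untreated arrays and -0.47 to 0.76 without single pairs. Cd83 had 0.23 without the untreated arrays and -0.435 to 0.228 without single pairs, Cd86 -0.61 to 0.0064 and Pdcd1lg2 -0.21 to 0.36, each without single pairs. Without the wild-type calcitriol and Vdr-/- untreated arrays, calcitriol in Vdr-/- gave -0.26 for Cd83 and 0.20 for Cd274, calcitriol in wild type gave -0.062 for Cd80, -0.16 for Cd86 and 0.26 for Cd83, their difference was -0.52 for Cd83, and the IFN-gamma difference was 0.80 for Cd83 and -0.70 for Pdcd1lg2. Without the untreated arrays, calcitriol in wild type gave -0.25 for Cd86 and 0.0902 for Cd83, and the IFN-gamma difference was 0.40 for Cd86 and 0.87 for Cd274. The cause was not tested. Signal near the floor limits Cd40, Cd80 and Pdcd1lg2.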
